A study of Gossypium hirsutum and Gossypium barbadense with 16 samples.

Results

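Of 52514 gene pairs matched between the cottons Gossypium hirsutum and Gossypium barbadense, 73 were more abundant in fiber cells than in the epidermal cells beneath them in the Upland line TM1, while the matched gene of the Pima line 3-79 stood at about the same level in both cell types. The 73 genes were chosen by their measured levels at 2 days post anthesis (DPA). In TM1, the lowest fiber library was over 5 FPKM and at least 1.5 times the highest epidermal library. In 3-79, the mean of the epidermal libraries was over 1 FPKM and the mean fiber level lay between 0.67 times the mean epidermal level and 25% above it. FPKM, fragments per kilobase of transcript scaled to the mapped fragments of the library, is a level per transcript length, so it can be compared between genes. Of the 52514 pairs, 42627 were above 0 in at least 1 library, and 636 met the TM1 limits. Of these 636, 593 were over 1 FPKM in 3-79 epidermal cells, and they divide into the 73 genes, 495 genes with a 3-79 ratio above these limits and 25 with a ratio below them.

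A cotton fiber is a single cell that grows out of the outer epidermis of the ovule. Fiber initials begin to bulge around the day of flowering and then elongate, giving the long lint fibers and, in some cottons, a later coat of short fuzz. Transcription factors of the MYB family are known for their part in fiber initiation. The IDs of the 73 genes are not paired with gene names in the files or in the annotation used here, so each gene is given by its ID, which holds its chromosome, and no role is assigned to it.

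The study used laser-capture microdissection, which cuts chosen cells from sections of fixed ovules, followed by RNA-seq. TM1 is a wild type G. hirsutum line with both lint and fuzz, 3-79 is a wild type G. barbadense line that makes almost no fuzz, and MD17 is a naturally occurring fiberless mutant with a G. hirsutum background. The 8 groups were fiber cells at 2 DPA, epidermal cells at 2 DPA and epidermal cells at 0 DPA of TM1; the same 3 of 3-79; and epidermal cells at 2 DPA and at 0 DPA of MD17, with 2 biological replicates in each. In TM1 and 3-79 at 2 DPA the protruding fibers were cut first and the epidermal layer below them afterwards. At 0 DPA, and in MD17 at 2 DPA as well, the whole top layer was taken. In TM1 and 3-79 at 0 DPA this layer holds the fiber initials. All plants grew in a greenhouse. MD17 is 1 line, so what is particular to its fiberless state and what belongs to that line cannot be told apart.

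The 16 libraries each held between 25689 and 29504 pairs over 1 FPKM. No library was left out. Among 20 MYB genes that the study placed in a tree, 11 had a higher mean in fiber than in epidermal cells of TM1, and 11 did so in 3-79. One of them, Gohir.1Z049716, had 196 and 199 FPKM in TM1 fiber cells, against 116 and 115 FPKM in TM1 epidermal cells, and in MD17 it had 8.51 and 8.27 FPKM at 2 DPA and 0 and 0.306 FPKM at 0 DPA. It was named after its values were seen and does not stand for the 20. Gohir.A05G368200 had 6.03 and 7.09 FPKM in TM1 fiber cells, against 19.0 and 26.6 FPKM in TM1 epidermal cells at 2 DPA. Gohir.D08G187100 had 43.4 and 38.8 FPKM in MD17 at 2 DPA, against 22.0 and 21.1 FPKM in TM1 fiber cells. These genes were also named after their values were seen. Reads of 3-79 were mapped to the G. barbadense genome and those of TM1 and MD17 to the G. hirsutum genome, so species and reference genome cannot be told apart in any difference between 3-79 and another line.

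The lowest TM1 fiber library exceeded the highest TM1 epidermal library by a median of 1.63 times over the members with a value above 0 in epidermal cells, with a range of 1.504 to 4.37 times. By means, the TM1 ratio had a median of 1.89 and the 3-79 ratio a median of 1.02 (range 0.718 to 1.247). These values chose the genes and carry no test. Fiber libraries above both epidermal libraries were found in all 73 by the rule, against 31% of the 12723 pairs that met the level limits alone (lowest TM1 fiber library over 5 FPKM and 3-79 epidermal mean over 1 FPKM, with no ratio used). The difference was modest in most members, and in 7 of 73 the lowest fiber library reached at least 2 times the highest epidermal library.

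**Figure D1:**
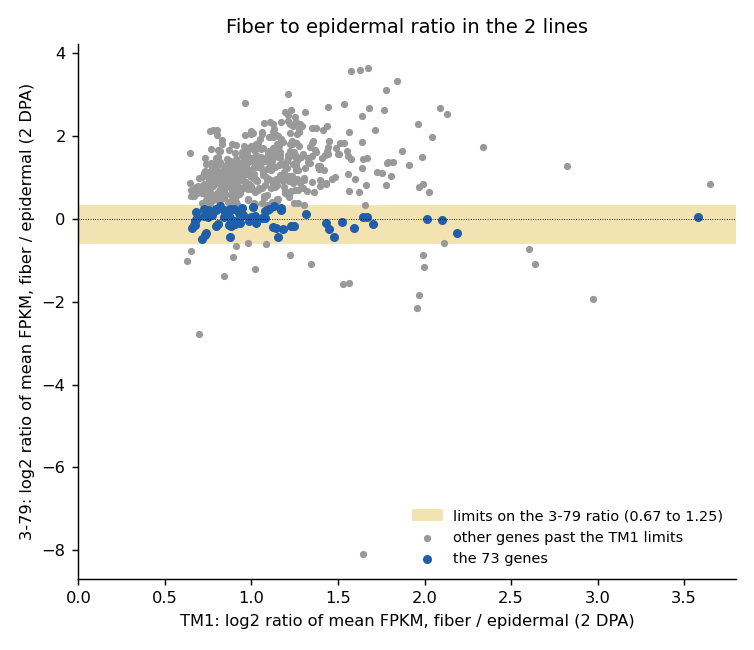
Log2 ratio of mean FPKM in fiber cells to mean FPKM in epidermal cells at 2 DPA, in TM1 (x axis) and in 3-79 (y axis), for genes that met the TM1 limits and the 3-79 epidermal minimum and whose means were above 0; each point is 1 gene and the band marks the limits on the 3-79 ratio. The 73 genes (blue) lie in the band by choice, the 495 with a higher ratio lie over it and the 25 with a lower ratio lie under it.

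Members just inside the limits lay close to genes just outside. Gohir.D05G179000 entered with a 3-79 ratio of 1.247 and Gohir.D07G120700 with 1.233, while Gohir.D07G126100 with 1.254 and Gohir.A01G229900 with 1.259 did not. At the lower limit, Gohir.D05G187700 entered with 0.718 and Gohir.D07G037000 with 0.736, while Gohir.A06G033600 with 0.6682 and Gohir.D02G183300 with 0.6668 did not. On the TM1 ratio, Gohir.D07G037000 with 1.504 and Gohir.A11G139700 with 1.506 were just inside, and Gohir.A07G114200 and Gohir.A07G034784, both with 1.498, just outside. On the lowest TM1 fiber library, Gohir.D10G119950 with 5.19 FPKM and Gohir.D12G113000 with 5.24 FPKM entered, and Gohir.D03G014300 with 4.603 FPKM and Gohir.A05G123000 with 4.27 FPKM did not. On the 3-79 epidermal mean, Gohir.A10G154000 with 2.23 FPKM and Gohir.D04G151400 with 2.34 FPKM entered, and Gohir.D05G134200 with 0.951 FPKM and Gohir.D05G137400 with 0.669 FPKM did not.

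The number of genes depended on the TM1 libraries. Since the rule compares the lowest fiber with the highest epidermal library of TM1, leaving out a TM1 library can add genes by construction. Without TM1 fiber replicate 1 the rule chose 267 genes, without replicate 2 it chose 321, and without TM1 epidermal replicate 1 or 2 at 2 DPA it chose 338 or 450. Without single fiber or epidermal libraries of 3-79 it chose 67 to 92. A ratio of 1.5 between the TM1 means in place of the extreme libraries chose 393 genes, all 73 among them. A TM1 ratio of 2 left 7 genes.

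The largest TM1 ratios mostly belonged to genes with wide replicate spread. Of the 8 members with the highest ratio, 5 had replicates more than 2-fold apart in TM1 fiber or epidermal cells at 2 DPA, against 6 of the other 65 members. Gohir.D08G124400 had 128 and 221 FPKM in TM1 fiber cells, against 0 and 29.2 FPKM in TM1 epidermal cells. In 3-79 it had 139 and 193 FPKM in fiber cells, against 182 and 140 FPKM in epidermal cells. The 3-79 libraries thus stood at the level of TM1 fiber and above both TM1 epidermal libraries.

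Gohir.A05G128200, with a TM1 ratio of 2.05, had 24.7 and 19.1 FPKM in TM1 fiber cells, against 4.18 and 9.32 FPKM in TM1 epidermal cells. Its 3-79 values were 18.4 and 20.6 FPKM in fiber cells, against 16.2 and 26.6 FPKM in epidermal cells, and the 2 groups overlapped. In MD17 it had 7.34 and 7.78 FPKM at 2 DPA and 6.59 and 7.23 FPKM at 0 DPA. Both tissues of 3-79 were therefore above all MD17 and TM1 epidermal values at 2 DPA. Gohir.A05G262400 had a like ratio in TM1 (2.11) with a narrow spread, at 8.20 and 8.85 FPKM in fiber cells, against 3.68 and 3.89 FPKM in epidermal cells, while the other 12 libraries lay between 4.61 and 8.64 FPKM. For this gene the 2 TM1 epidermal libraries at 2 DPA were the lowest of all 16.

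Of the other members with a high ratio, Gohir.D10G053400 had 6.73 and 7.80 FPKM in TM1 fiber cells, against 0 and 3.19 FPKM in TM1 epidermal cells, and Gohir.A09G185500 had 5.82 and 6.22 FPKM, against 0.128 and 2.85 FPKM. Gohir.D04G062700 had 122 and 68.7 FPKM in TM1 fiber cells, against 30.9 and 30.2 FPKM in TM1 epidermal cells, but its replicates at 0 DPA were 221 and 39.5 FPKM in TM1 and 4.92 and 231 FPKM in MD17. Gohir.A02G058901 was listed at 0 in both TM1 epidermal libraries at 2 DPA, so no ratio is given, and it had 91.0 and 1134 FPKM in TM1 fiber cells. At 0 DPA in TM1 it was listed at 0 in 1 replicate and had 674 FPKM in the other. In 3-79 it lay between 3.72 and 8.55 FPKM in all 6 libraries, and in MD17 between 135 and 639 FPKM in all 4. Gohir.D13G043400, the last of the 8 by ratio, had replicates close together, with 16.1 and 14.8 FPKM in TM1 fiber cells, against 5.58 and 7.46 FPKM in TM1 epidermal cells.

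Of the 6 members with the highest mean in TM1 fiber, Gohir.A02G058901 and Gohir.D08G124400 have been described, and the other 4 had replicates closer together in TM1 fiber cells. Gohir.D07G095800 had 239 and 244 FPKM in TM1 fiber cells, against 135 and 105 FPKM in TM1 epidermal cells, and it had 145 and 152 FPKM in 3-79 fiber cells, against 109 and 136 FPKM in 3-79 epidermal cells. TM1 fiber stood above the other 14 libraries, which ended at 173 FPKM. Gohir.A06G070600 had 182 and 170 FPKM in TM1 fiber cells, against 111 and 108 FPKM in TM1 epidermal cells. Its 6 libraries of 3-79 lay between 107 and 131 FPKM and its 4 libraries of MD17 between 65.0 and 75.2 FPKM. This gene thus showed 3 tiers, with TM1 fiber at the top, the other wild type libraries in the middle and MD17 at the bottom.

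Gohir.D06G066600 had 174 and 203 FPKM in TM1 fiber cells, against 115 and 87.5 FPKM in TM1 epidermal cells. It was lower in 3-79, with 56.1 and 46.5 FPKM in fiber cells, against 42.9 and 44.7 FPKM in epidermal cells. Gohir.D13G191900 had 191 and 232 FPKM in TM1 fiber cells, against 121 and 97.6 FPKM in TM1 epidermal cells, and was higher in 3-79, with 284 and 353 FPKM in fiber cells, against 281 and 315 FPKM in epidermal cells. Its matched gene in 3-79 carries an ID of chromosome D05, not D13. These 2 members lie on opposite sides of TM1 in their 3-79 level.

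Over the 73 genes, the median level was 15.4 FPKM in TM1 fiber cells, against 7.39 FPKM in TM1 epidermal cells at 2 DPA and 11.1 FPKM in TM1 epidermal cells at 0 DPA. In 3-79 it was 11.9 FPKM in fiber cells, against 11.4 FPKM in epidermal cells at 2 DPA and 9.87 FPKM at 0 DPA. In MD17 it was 8.09 FPKM at 2 DPA, against 7.79 FPKM at 0 DPA. TM1 fiber was the group with the highest mean in 45 of 73 members. The lowest group was TM1 epidermal cells at 2 DPA in 26 and MD17 at 0 DPA in 22. The rule favours TM1 fiber as the highest group and TM1 epidermal cells at 2 DPA as the lowest. The same counts were not made over the 12723 pairs.

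**Figure D2:**
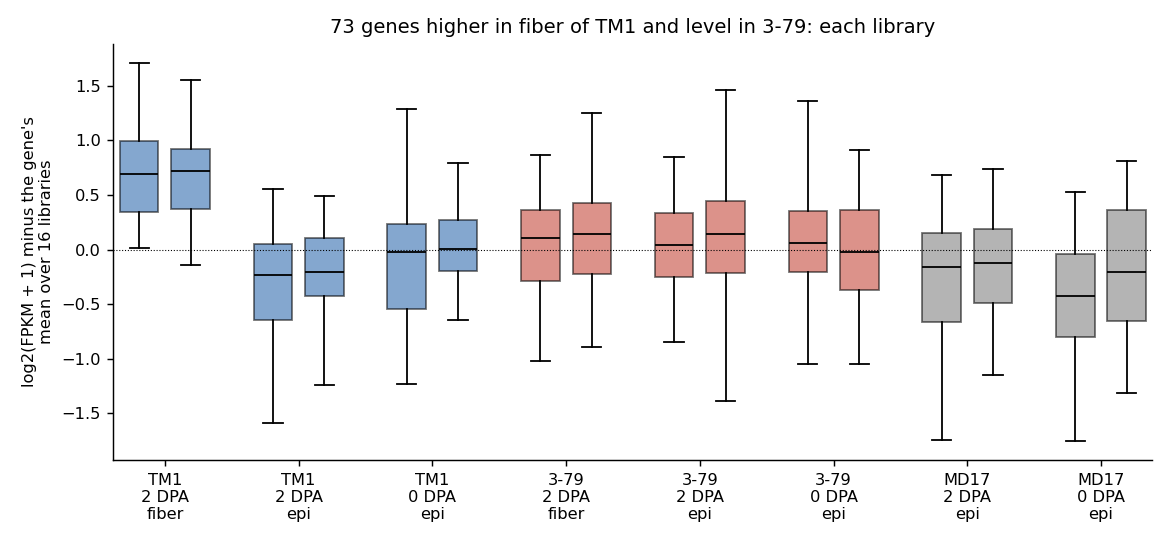
Log2(FPKM + 1) of the 73 genes in each of the 16 libraries, minus the gene's own mean over the libraries; 1 box per library, 2 replicates per group (box, quartiles; line, median; whiskers, 5th to 95th percentile; blue TM1, red 3-79, grey MD17). The medians of the 2 TM1 fiber libraries are 0.69 and 0.72, those of the 2 TM1 epidermal libraries at 2 DPA are -0.23 and -0.20, and those of the 6 libraries of 3-79 lie between -0.02 and 0.14.

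The choice set TM1 fiber apart from TM1 epidermal cells at 2 DPA, so differences of either from another group share libraries with it and are given as counts of genes whose libraries did not overlap, with no test. Both TM1 fiber libraries were above both TM1 libraries of 0 DPA in 52 members and below them in 5, against 34.1% and 34% of the 12723 pairs. TM1 epidermal cells at 2 DPA were above those of 0 DPA in 12 members and below them in 32, against 22.3% and 24.9%. Against MD17 epidermal cells at 2 DPA, TM1 fiber cells were above in 58 members and below in 2, against 39.4% and 32.7%.

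The level of the TM1 top layer at 0 DPA, which holds fiber initials, was set beside the 2 cell types separated at 2 DPA. The mean at 0 DPA was above the fiber mean in 12 members and below the epidermal mean of 2 DPA in 21. It lay between them in the remaining 40, nearer by ratio to the fiber mean in 16 and to the epidermal mean in 24. Gohir.A02G058901, with a TM1 epidermal mean of 0 at 2 DPA, has no such ratio and was counted among the 16. Nearness by difference in FPKM would place some members otherwise. These positions were not counted over the 12723 pairs, so they describe the members only. Gohir.A08G200000 was an example of a level already as high at 0 DPA as in fiber, with 80.7 and 66.6 FPKM in TM1 fiber cells, against 38.0 and 34.3 FPKM in TM1 epidermal cells at 2 DPA and 79.0 and 72.3 FPKM at 0 DPA. In bulk samples of this kind, fewer cells of a type and less RNA per cell cannot be told apart.

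Fiber and epidermal cells of 3-79 overlapped in 60 of the 73 members. Both fiber libraries were above both epidermal libraries in 7 members and below them in 6, against 30.7% and 30.3% of the 12723 pairs, a contrast the rule used. Within the window of means, single replicate pairs differed more. The ratio of fiber to epidermal level lay within the same limits in both same-numbered pairs of 3-79 in 31 members. It did so in 1 pair in 27 and in neither in 15, and the 2 pairs went in opposite directions in 44. Such pairs share only a number in the labels, and a rule on the ratio of means favours opposite directions. These pair counts were not made over the 12723 pairs. The 4 libraries of 3-79 at 2 DPA lay within 1.5-fold of each other in 29 members, within 2-fold in 52 and within 3-fold in 66. Replicates of a group were more than 2-fold apart in 2 of the 73 members in TM1 fiber. They were so in 10 to 17 of the 73 in each of the other 7 groups. Over the 12723 pairs this share was 2.61% in TM1 fiber and between 4.18% and 6.92% in the other groups. Outside TM1 fiber, wide replicates were thus more frequent among the members than over the 12723 pairs.

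The level of 3-79, which the rule made even by means but not by single libraries, was not set at 1 end of the TM1 range. The mean of its 4 libraries at 2 DPA was above the TM1 fiber mean in 13 members and below the TM1 epidermal mean in 18. It lay between them in 42, nearer by ratio to fiber in 18 and to epidermal cells in 24. The former 18 include Gohir.A02G058901, for which a TM1 epidermal mean of 0 gives no ratio. Its 3-79 level of 5.37 FPKM was far below its TM1 fiber mean of 613 FPKM. By single libraries, all 4 were above both TM1 fiber libraries in 5 members. They were below both TM1 epidermal libraries in 11. In 21 others all 4 were above both TM1 epidermal libraries but not above both fiber libraries, and in 24 all 4 were below both fiber libraries but not clear of the epidermal ones. The other 12 overlapped both cell types of TM1. These positions were not counted over the 12723 pairs, so they describe the 73 and do not set them apart from other genes. TM1 fiber cells were above 3-79 fiber cells in 47 members and below them in 8, against 31.1% and 25.6% of the 12723 pairs. TM1 epidermal cells were above 3-79 epidermal cells in 12 members and below them in 34, against 26.1% and 27.5%. Members with a higher fiber level in TM1 than in 3-79 and members with a lower epidermal level were thus both present among the 73, in directions that the rule favours.

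**Figure D3:**
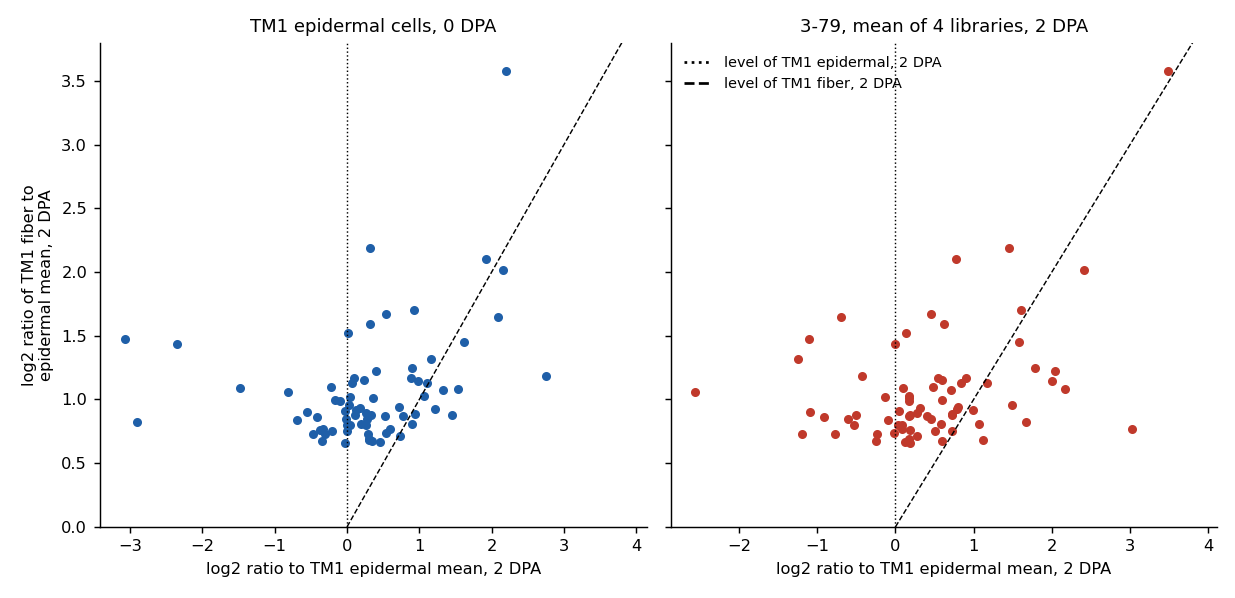
For the 72 members with a TM1 epidermal mean above 0 at 2 DPA, the log2 ratio of TM1 fiber to TM1 epidermal mean (y axis) against the log2 ratio of another mean to the same TM1 epidermal mean (x axis); 1 point per gene, left panel TM1 epidermal cells at 0 DPA, right panel the mean of the 4 libraries of 3-79 at 2 DPA. Points on the dotted line equal TM1 epidermal cells and points on the dashed line equal TM1 fiber; most points of each panel lie between the lines or close to the dotted one.

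Tests were made of 4 comparisons whose means hold no library of the rule: TM1 and 3-79 epidermal cells at 0 DPA each against MD17, TM1 against 3-79 at 0 DPA, and MD17 at 2 DPA against 0 DPA. A gene was called where the Benjamini-Hochberg adjusted p of limma over 42627 pairs was under 0.05, the higher mean was over 5 FPKM and the ratio of means was over 1.5. Changes are differences of mean log2(FPKM + 1), which understate the change of low genes. The spread of each gene was estimated over all 16 libraries, 8 of which the rule used, so the counts of a fit on the 8 other libraries, chosen after seeing the data, stand beside the main ones.

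At 0 DPA, when the captured layer of TM1 holds fiber initials and that of MD17 does not, 12 of the 73 members (16.4%) were higher in TM1 and 2 were lower. Over all 42627 pairs 2.54% were called higher and 1.35% lower, and over the 12723 pairs past the level limits 7.53% and 2.08%. Of the 495 genes with a raised ratio in both wild types, 27.7% were higher in TM1. The median change of the 73 genes was 0.31, against 0.04 over the 12723 pairs, with 48 of 73 above 0. Of the 73, 62 had a group mean over 5 FPKM and could be called.

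The largest change was that of Gohir.A08G200000, which had 79.0 and 72.3 FPKM in TM1, against 1.70 and 0 FPKM in MD17. It was higher in TM1 by 5.54 ± 0.38 (SE) on the log2 scale (limma adjusted p = 1.36e-05), and at 2 DPA it had 5.53 and 3.02 FPKM in MD17. Gohir.D04G151400 had 15.9 and 22.9 FPKM in TM1, against 0.5998 and 0.0735 FPKM in MD17, a difference of 3.94 ± 0.33 (limma adjusted p = 6.29e-05). For this gene the TM1 level at 0 DPA was above that of TM1 fiber at 2 DPA, which was 6.60 and 6.54 FPKM.

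Lower in TM1 were Gohir.A02G099300, with 8.71 and 13.5 FPKM in TM1, against 36.6 and 30.6 FPKM in MD17 (-1.54 ± 0.33, limma adjusted p = 0.0247), and Gohir.A01G057600, with 2.61 and 3.12 FPKM, against 6.95 and 7.17 FPKM (-1.06 ± 0.25, limma adjusted p = 0.0392). Both calls were fragile. That of Gohir.A02G099300 was lost without TM1 replicate 1 (adjusted p = 0.178) and without MD17 replicate 1 (0.134) or 2 (0.0938), and that of Gohir.A01G057600 without any 1 of the 4 libraries (0.0859 to 0.170). The count of 12 became 7 without TM1 replicate 1 or 2, 6 without MD17 replicate 1 and 9 without MD17 replicate 2, and the count of 2 became 0 without either MD17 replicate. With limma on the 8 libraries that the rule did not use, 7 members were higher and 1 lower, against 5.43% and 1.11% of the 12723 pairs, and the call of Gohir.A01G057600 was lost (adjusted p = 0.0934). On the libraries of the 2 groups alone, 3 were higher and 0 lower. Without single libraries or on 2 groups alone, calls over the 12723 pairs were not counted. Those counts of members therefore cannot be set against the shares of the main fit.

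**Figure D4:**
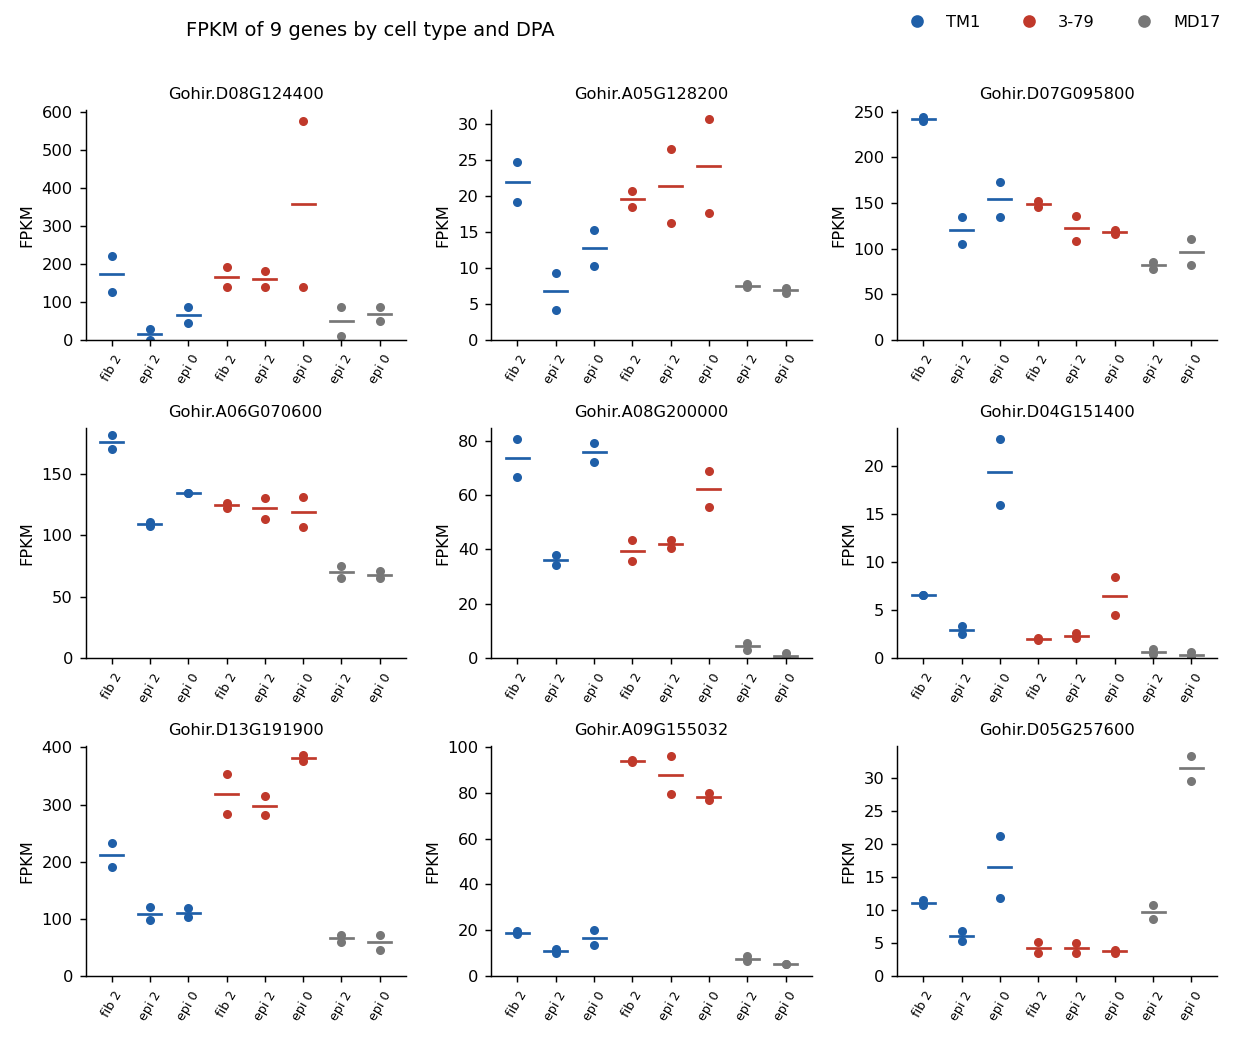
FPKM of 9 members in each library (points, 2 replicates) with the group mean (line); fib 2 and epi 2 are fiber and epidermal cells at 2 DPA and epi 0 epidermal cells at 0 DPA, and the y axis starts at 0 in each panel. In all 9 panels both TM1 fiber points are above both TM1 epidermal points at 2 DPA, by choice, while Gohir.A08G200000 and Gohir.D04G151400 are near 0 in MD17, Gohir.A09G155032 is highest in 3-79 and Gohir.D05G257600 is highest in MD17 at 0 DPA.

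In 3-79 epidermal cells at 0 DPA, 16 of the 73 members (21.9%) were higher than in MD17 and 2 were lower. Calls over the 42627 pairs were 5.95% higher and 4.93% lower, and over the 12723 pairs 12.9% and 8.15%. Of the 495 genes with a raised ratio in both wild types, 43.4% were higher in 3-79. The median change of the 73 genes was 0.23, against 0.04 over the 12723 pairs. This comparison shares its MD17 libraries with the one of TM1. The count of 16 fell whichever single library of the 2 groups was left out, and calls over the 12723 pairs were not counted then.

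Gohir.A08G200000 had 68.7 and 55.8 FPKM in 3-79, against 1.70 and 0 FPKM in MD17, and was higher by 5.26 ± 0.38 (limma adjusted p = 7.78e-06). Gohir.A09G155032 had 76.8 and 79.9 FPKM in 3-79, against 5.18 and 5.32 FPKM in MD17, and was higher by 3.67 ± 0.19 (limma adjusted p = 6.99e-07). Its 3-79 level at 2 DPA was of the same order, with 93.4 and 94.3 FPKM in fiber cells, against 79.6 and 96.0 FPKM in epidermal cells, while TM1 had 19.7 and 18.4 FPKM in fiber cells, against 10.26 and 12.03 FPKM in epidermal cells, far below every library of 3-79. Gohir.D05G257600 had 3.58 and 3.99 FPKM in 3-79, against 33.4 and 29.6 FPKM in MD17, and was lower in 3-79 (-2.76 ± 0.28, limma adjusted p = 7.62e-05). Gohir.A03G023700 had 5.19 and 3.53 FPKM in 3-79, against 8.25 and 12.95 FPKM in MD17 (-1.10 ± 0.24, limma adjusted p = 0.0110), and its call was lost without 3-79 replicate 2 (adjusted p = 0.0761) and without MD17 replicate 2 (0.0774). Without either of those 2 libraries the count of lower members was 1. In the limma fit on the 8 libraries that the rule did not use, 12 members were higher and 2 lower, against 11.3% and 7.1% of the 12723 pairs.

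**Figure D5:**
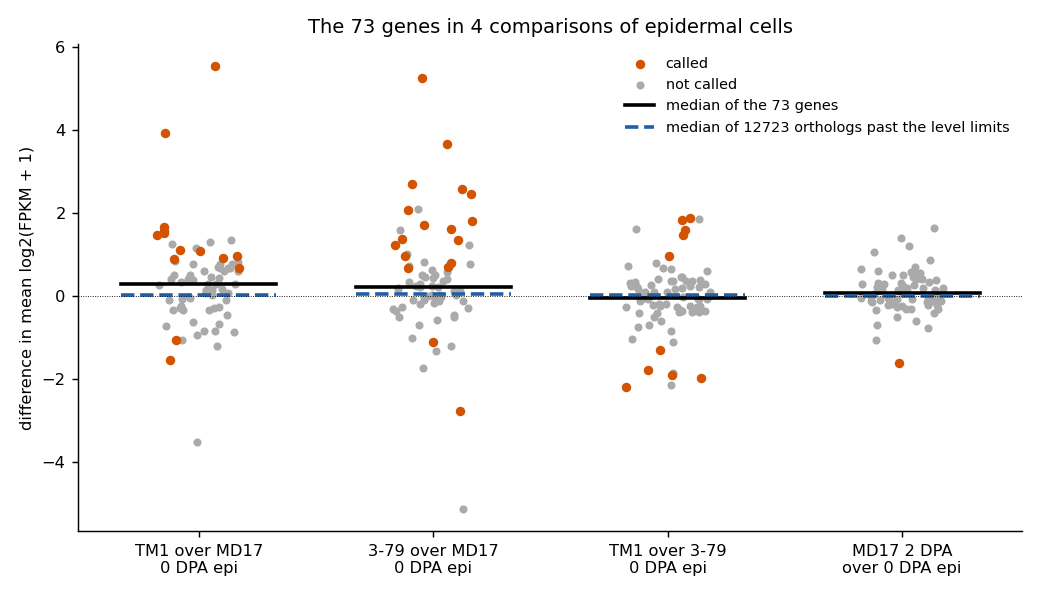
Difference in mean log2(FPKM + 1) of the 73 genes in the 4 tested comparisons (1 point per gene, spread sideways for legibility; orange, called; grey, not called; black line, median of the 73; dashed blue line, median of the 12723 pairs past the level limits). The medians of the 73 are 0.31, 0.23, -0.03 and 0.09, and the called points lie mostly above 0 in the first and second comparisons and on both sides in the third.

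TM1 epidermal cells differed from those of 3-79 at 0 DPA in both directions. Of the 73 members, 5 were higher in TM1 and 5 lower (6.85% each). Over the 42627 pairs 2.62% were called higher and 3.81% lower, and over the 12723 pairs 5.73% and 6.04%, so the members' shares were near those of other pairs of like level. The median change was -0.03, against 0.03 over the 12723 pairs. Of the 495 genes, 6.46% were higher in TM1 and 17.0% lower.

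Gohir.A12G021300 had 126 and 107 FPKM in TM1, against 26.9 and 35.7 FPKM in 3-79, and was higher in TM1 by 1.87 ± 0.38 (limma adjusted p = 0.0112). That call was lost without TM1 replicate 1 (adjusted p = 0.0896) and without 3-79 replicate 1 (0.0850). Gohir.D05G257600 had 21.3 and 11.9 FPKM in TM1, against 3.58 and 3.99 FPKM in 3-79, and was higher in TM1 by 1.83 ± 0.28 (limma adjusted p = 0.00207). Gohir.A09G155032 had 13.5 and 20.2 FPKM in TM1, against 76.8 and 79.9 FPKM in 3-79 (-2.18 ± 0.19, limma adjusted p = 4.58e-05). Gohir.D13G043400 had 10.9 and 13.3 FPKM in TM1, against 53.7 and 46.9 FPKM in 3-79 (-1.97 ± 0.35, limma adjusted p = 0.00489). These 4 genes are the 2 with the largest change in each direction, so both directions are present among them by choice. The count of 5 higher became 3 without TM1 replicate 1 or 3-79 replicate 2 and 2 without TM1 replicate 2 or 3-79 replicate 1, and the count of 5 lower became 3 without TM1 replicate 1. In the limma fit on the 8 libraries that the rule did not use, 3 members were higher and 4 lower, against 5.05% and 4.68% of the 12723 pairs. On the libraries of the 2 groups alone, 3 were higher and 3 lower, and the call of Gohir.D05G257600 was lost (limma adjusted p = 0.0539). Calls over the 12723 pairs were not counted without single libraries or on 2 groups alone.

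In the fiberless MD17, 1 member passed the test between 2 and 0 DPA. None was called higher at 2 DPA (0 of 73 by limma, 7 at an unadjusted p under 0.05), and 1 was lower. The count of 7 was not made over other pairs, nor were the counts without single libraries given below. Both libraries of 2 DPA were above both of 0 DPA in 16 members and below them in 8, against 20.9% and 18.9% of the 12723 pairs. Of the 73 members, 58 were over 5 FPKM in at least 1 of the 2 groups and could be called. Over the 42627 pairs 0.239% were called higher and 0.152% lower, and over the 12723 pairs 0.566% and 0.134%. Of the 495 genes, 5.05% were higher at 2 DPA. The median change of the 73 genes was 0.09, against 0.00 over the 12723 pairs. The member that fell was Gohir.D05G257600, with 8.66 and 10.7 FPKM at 2 DPA, against 33.4 and 29.6 FPKM at 0 DPA (-1.61 ± 0.28, limma adjusted p = 0.0287). Its call was lost without any 1 of the 4 libraries (adjusted p = 0.0574 to 0.124), and in the fit on the 8 libraries that the rule did not use (0.128), and without replicate 2 of either MD17 group 1 member was called higher.

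By their IDs, 41 of the 73 members (56.2%) lie in the A subgenome and 32 (43.8%) in the D subgenome, against 49.7% and 50.2% of the 12723 pairs and 50.3% and 49.5% of the 495 genes. Chromosomes A13 and D10 held the most, with 7 members each. This was 1.4% of the 500 pairs past the level limits on A13 and 1.59% of the 441 on D10. On the other chromosomes the share was 0.153% to 1.19%. The 2 chromosomes were picked by their counts, and no test was made. No 2 members were next to each other in the order of IDs. Gohir.A01G057600 and Gohir.D09G117400 each had a neighbour, Gohir.A01G057700 and Gohir.D09G117300, that met the TM1 limits without being a member, and these genes were named after their values were seen.

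The values of 3-79 come from the gene that the authors matched as ortholog. Each of the 73 had 1 G. barbadense gene with identical values, and for 4 of them (5.48%) that gene carried another chromosome in its ID, against 3.99% of 12593 pairs past the level limits with 1 such gene. In 3 of these 4 it was a chromosome of the other subgenome (4.11%, against 3.41%), so the 3-79 value may be that of a homoeolog. Near-identical A and D copies also share reads, which the authors limited by keeping uniquely mapped ones.

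Of 20 auxin response factor genes and 20 MYB genes that the study lists by ID, 0 were members. None of the auxin response factor genes met the TM1 limits, and 5 of the MYB genes did. Of 265 genes that the study lists as enriched in TM1 at 2 DPA, 10 were members, but that list was chosen on these same libraries and is not independent evidence.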

How the data were processed

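Epidermal and fiber cells of 8 groups (2 replicates each, 16 libraries) were measured by RNA-seq. The authors mapped reads with TopHat2 2.1.1 (TM1 and MD17 to the G. hirsutum TM-1 genome, 3-79 to the G. barbadense genome), kept uniquely mapped reads and deposited FPKM from Cufflinks 2.2.1. SAMtools 1.5 is named in the submitters' processing notes. Of the 4 deposited tables, the one of orthologs gave every value here, and the 3-79 table served to match its genes. Read counts per gene were not used, so the depth behind a value is unknown. FPKM are scaled within each library, so a value is relative to the rest of that library.

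The members, gene lists and tests were chosen with earlier results of these data known. Log2(FPKM + 1) was fitted on 8 group means over 16 libraries with limma 3.58.1 (R 4.3.3; trended variance), with Benjamini-Hochberg adjustment over 42627 pairs above 0. The fit was tested on simulated data. Tables and plots were made with Python 3.11.15, pandas 2.3.3 and matplotlib 3.10.9. Named genes were the 8 members with the highest TM1 ratio, the 6 with the highest mean in TM1 fiber, those nearest the limits, and per tested comparison the called, non-overlapping members with the largest change, of which at most 2 in each direction are printed because the IDs carry no names. Of 52514 IDs, 0 matched the RefSeq table (assembly Gossypium_hirsutum_v2.1), so gene lists by product name, cell markers by name among them, could not be counted. The alternatives tried were 0.1 in place of 1 in the logarithm, 10 FPKM or no minimum, unadjusted P under 0.01, limma on 2 groups or (chosen after seeing the data) on the 8 libraries that the rule did not use, a replicate block, rescaled libraries, other limits of the rule and leaving out each replicate.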

Additional observations from a re-analysis of the deposited data

Results flagged for a closer look

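The 4 members named above for TM1 against 3-79 at 0 DPA are set beside MD17 here. They were chosen by their calls in that limma test. MD17 cancels in the difference of the 2 differences from it, so the values restate that test and add none. The call of Gohir.A12G021300 was lost when some single libraries were left out, and that of Gohir.D05G257600 on the libraries of the 2 groups alone. For Gohir.A12G021300 TM1 stood 1.57 above MD17 and 3-79 stood at -0.31 (adjusted p = 0.685), a difference of 1.87 on the log2 scale. For Gohir.D05G257600 the values were -0.94 (adjusted p = 0.0894) in TM1 and -2.76 in 3-79, a difference of 1.83. For Gohir.A09G155032 they were 1.48 in TM1 and 3.67 in 3-79, a difference of -2.18. For Gohir.D13G043400 they were 0.09 (adjusted p = 0.999) in TM1 and 2.07 in 3-79, a difference of -1.97. Species and reference genome cannot be told apart in these differences. Groups of 2 libraries do not allow a test for single libraries that stand apart.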

How the results depend on the processing

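None of the differences of single genes chosen for naming changed its direction under an alternative. The direction of the other called members was not checked. The medians of TM1 against 3-79 and of MD17 over time changed sign when single libraries were left out. The count of members depended most on the limits, with 393 by a ratio between means, 7 by a TM1 ratio of 2, 31 with the 3-79 ratio in each replicate pair, and 67 to 450 when single libraries were left out. Limma on 2 groups alone gave 3 higher and 0 lower for TM1 against MD17, 3 and 3 for TM1 against 3-79, and 0 lower for MD17 over time. Limma on the 8 libraries that the rule did not use, chosen after seeing the data, gave 7 higher and 1 lower for TM1 against MD17, 12 and 2 for 3-79 against MD17, 3 and 4 for TM1 against 3-79, and 0 and 0 for MD17 over time. A minimum of 10 FPKM left 1 lower member for TM1 against MD17, and an unadjusted P under 0.01 gave 4 higher members in MD17 over time. Leaving out single libraries, where a lone library is assumed to vary like the other groups, gave 6 to 9 higher and 0 to 2 lower members for TM1 against MD17, 11 to 12 and 1 to 2 for 3-79 against MD17, 2 to 3 and 3 to 4 for TM1 against 3-79, and 0 to 1 and 0 to 0 for MD17 over time. The medians then lay between 0.28 and 0.42 for TM1 against MD17, 0.14 and 0.29 for 3-79 against MD17, -0.041 and 0.027 for TM1 against 3-79, and -0.033 and 0.18 for MD17 over time. Of the other alternatives, 64 left a count or median within its limits of change and 14 did not. Calls were counted over the 12723 pairs only in the main fit and in the fit on the 8 libraries. Counts of called members under every other setting have no such share beside them. Of the differences of single genes chosen for naming, 16 lost their call and 120 kept it under those alternatives, and 26 lost it and 42 kept it when single libraries were left out.

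Same-numbered replicates share only a number in the labels. The correlation of their deviations was -0.11, 0.05, -0.01 and 0.24 in the 4 comparisons. With the replicate block, the counts were 11 higher and 2 lower for TM1 against MD17, 16 and 3 for 3-79 against MD17, 6 and 5 for TM1 against 3-79, and 0 and 1 for MD17 over time. With 2 libraries a group and an unknown depth, small differences were not detectable here.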
